A study of Mus musculus with 8 samples.

Results

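The transcripts described here are the 9 genes of the visual cycle named Rpe65, Lrat, Rdh5, Rgr, Rlbp1, Rbp3, Rdh8, Rdh12 and Abca4. They were chosen by gene name, and all 9 were found, once each, among the 54532 genes of the count table. All 9 passed the filter on low counts, which kept 17004 genes. By the cell that mainly makes them, 4 are genes of the retinal pigment epithelium (Rpe65, Lrat, Rdh5, Rgr), 1 is listed for Müller glia (Rlbp1) and 4 are photoreceptor genes (Rbp3, Rdh8, Rdh12, Abca4).

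RNA was sequenced from mouse retina in 8 libraries, selected for poly(A) and read as 150 bp pairs. The 4 libraries of the treated group are labelled sIVs (small intracellular vesicles, membrane vesicles taken from inside cells), and the 4 control libraries are labelled PBS, the salt buffer. Replicates are numbered 1, 3, 4 and 5 in each group. The sources used here do not give the strain, age, dose, route or time of treatment, any injury model, or whether pigment epithelium was left on the retina at dissection. Nor do they say whether the libraries came from separate animals, so p-values measure only the spread between these libraries, which may be technical.

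Light turns 11-cis retinal, the chromophore bound to the opsins, into all-trans retinal. Photoreceptors reduce it to retinol, which crosses the space between photoreceptors and pigment epithelium, where it is stored as an ester, converted to the 11-cis form, oxidised to 11-cis retinal and sent back. Müller glia are support cells that take part in a second route serving cones. The pigment epithelium is a separate cell layer that adheres to photoreceptor outer segments and can partly come away with a dissected retina.

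The libraries held 13803958 to 16622259 counts. Gnat1, the rod transducin gene and a defining transcript of the labelled tissue, stood at 5643 to 11493 CPM (counts scaled to the normalised library size) in the 8 libraries, whereas 8 lens genes summed to less than 1 CPM in each. Replicate 4 of the sIVs group stood apart from the rest. It was the highest of the 8 libraries for 35.7% and the lowest for 35.4% of the 17004 genes tested, and its weight in limma-voom, which scores how well a library follows its group, was 0.0913 against 0.637 to 2.74 in the others. Each group difference below is therefore given with and without it.

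The sequences around the start sites of 5 members show which recognition motifs lie close to genes that moved together or apart in these libraries. They run from 250 bases before to 50 bases after the start site, come from RefSeq (GRCm38.p6) and are written 5′ to 3′ along the gene. The RefSeq start of Rgr lies upstream of the annotated gene used for counting. Rpe65 and Rgr varied most between libraries, Rlbp1 is the glial member, and Rbp3 and Rdh12 are photoreceptor genes that went opposite ways in sIVs replicate 4. Capitals mark TAATCC, the core recognised by the homeodomain factors OTX2 and CRX, and CATGTG, an E-box recognised by MITF among other factors, each on either strand.
Rpe65, chr3:159598931-159599230, plus strand: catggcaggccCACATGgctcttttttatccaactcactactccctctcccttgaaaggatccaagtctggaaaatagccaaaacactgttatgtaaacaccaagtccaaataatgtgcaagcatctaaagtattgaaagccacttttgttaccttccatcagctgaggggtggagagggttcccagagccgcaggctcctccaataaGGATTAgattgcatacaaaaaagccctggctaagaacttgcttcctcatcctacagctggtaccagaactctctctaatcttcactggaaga
Rgr, chr14:37048965-37049264, minus strand: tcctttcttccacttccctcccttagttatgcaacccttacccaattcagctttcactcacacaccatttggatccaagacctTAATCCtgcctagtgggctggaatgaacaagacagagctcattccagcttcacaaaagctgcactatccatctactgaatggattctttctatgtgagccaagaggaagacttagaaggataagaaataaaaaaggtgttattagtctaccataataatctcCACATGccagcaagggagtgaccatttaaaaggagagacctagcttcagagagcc
Rlbp1, chr7:79386978-79387277, minus strand: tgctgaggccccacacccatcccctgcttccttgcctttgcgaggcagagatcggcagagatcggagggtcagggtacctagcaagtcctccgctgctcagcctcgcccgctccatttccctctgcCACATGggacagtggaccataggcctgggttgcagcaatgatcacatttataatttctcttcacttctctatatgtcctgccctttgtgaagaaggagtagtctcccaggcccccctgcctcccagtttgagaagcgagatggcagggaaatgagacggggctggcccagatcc
Rbp3, chr14:33953753-33954052, plus strand: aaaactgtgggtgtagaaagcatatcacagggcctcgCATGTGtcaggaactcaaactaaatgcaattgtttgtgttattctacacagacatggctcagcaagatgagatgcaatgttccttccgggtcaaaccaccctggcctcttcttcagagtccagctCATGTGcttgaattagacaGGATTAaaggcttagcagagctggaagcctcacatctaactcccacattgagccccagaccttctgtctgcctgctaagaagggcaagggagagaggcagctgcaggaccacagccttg
Rdh12, chr12:79208663-79208962, plus strand: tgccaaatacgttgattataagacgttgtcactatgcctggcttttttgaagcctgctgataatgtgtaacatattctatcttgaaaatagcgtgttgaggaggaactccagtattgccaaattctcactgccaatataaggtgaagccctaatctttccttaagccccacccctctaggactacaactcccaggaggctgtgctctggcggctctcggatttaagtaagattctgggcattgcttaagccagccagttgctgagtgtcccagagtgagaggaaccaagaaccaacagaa
Of the 9 member promoters, all found in the table, 4 held TAATCC (Rpe65, Rgr, Rbp3 and Abca4), against 7.06% of 32817 promoters of 300 bases. CATGTG was in 4 of 9 (Rpe65, Rgr, Rlbp1 and Rbp3), against 14.2% of all, and the palindromic E-box CACGTG, which overlaps neither, in 0 of 9, against 7.15%. In Rpe65 the TAATCC match began 42 bases before the start site, in Abca4 58 bases, in Rbp3 69 bases and in Rgr 167 bases. The motif was present in genes of both cell layers, and the windows of Lrat, Rdh5, Rdh8 and Rdh12 held none of the 3. Lrat and Rdh5 were highest in sIVs replicate 4, as Rpe65 and Rgr were, and Rdh8 was lowest there, as Rbp3 and Abca4 were. A match is only a run of letters in this window.

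Per unit of gene length, photoreceptor and glial members were far more abundant than those of pigment epithelium. FPKM values (fragments scaled to gene length and library size) allow this comparison between genes. Rbp3, which encodes the retinoid carrier of the space between photoreceptors and pigment epithelium, led with 838 ± 112 FPKM in PBS and 753 ± 215 FPKM in sIVs retinas (SD, n = 4 each), and its mean ranked 21 among all genes of the table. Its range lay wholly above that of the next member, Rlbp1. Rlbp1, which encodes the 11-cis retinoid carrier CRALBP of Müller glia and pigment epithelium, stood at 160 ± 10.7 and 189 ± 57.7 FPKM. Rdh12, a retinal reductase of photoreceptor inner segments, stood at 113 ± 38.6 and 133 ± 36.7 FPKM. Abca4, the outer segment transporter that clears retinal adducts from disc membranes, stood at 103 ± 36.1 and 94.6 ± 37.7 FPKM. Rdh8, the all-trans retinal reductase of outer segments, stood at 59.6 ± 11.6 and 52.5 ± 24.3 FPKM (SD, n = 4 each).

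The order from Rlbp1 to Rdh8 was not clear-cut, since each of these neighbours overlapped in range over the 8 libraries. Within single libraries, however, Rlbp1 was above Rdh12 in 6 of 8, Rdh12 above Abca4 in 7 of 8 and Abca4 above Rdh8 in 8 of 8. The 4 pigment epithelium members had lower means. Rdh8 was above Rgr in 7 of 8 libraries, but in sIVs replicate 4 Rgr (31.0 FPKM) and Rpe65 (30.3 FPKM) were above Rdh8 (22.7 FPKM). Rgr, an opsin-like retinal-binding protein of pigment epithelium and Müller glia, stood at 1.77 ± 1.21 FPKM in PBS and 9.85 ± 14.2 FPKM in sIVs retinas (SD, n = 4 each). Rpe65, the isomerase that makes the 11-cis retinoid, stood at 1.15 ± 0.993 and 8.63 ± 14.4 FPKM. Rdh5, the 11-cis retinol dehydrogenase, stood at 1.54 ± 0.505 and 4.69 ± 6.44 FPKM, and Lrat, which esterifies retinol for storage, at 0.382 ± 0.180 and 0.852 ± 1.14 FPKM. Rpe65 and Rdh5 did not keep an order, each being the higher in 4 of 8 libraries. In the sIVs group the SD of these 4 exceeded the mean.

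**Figure D1:**
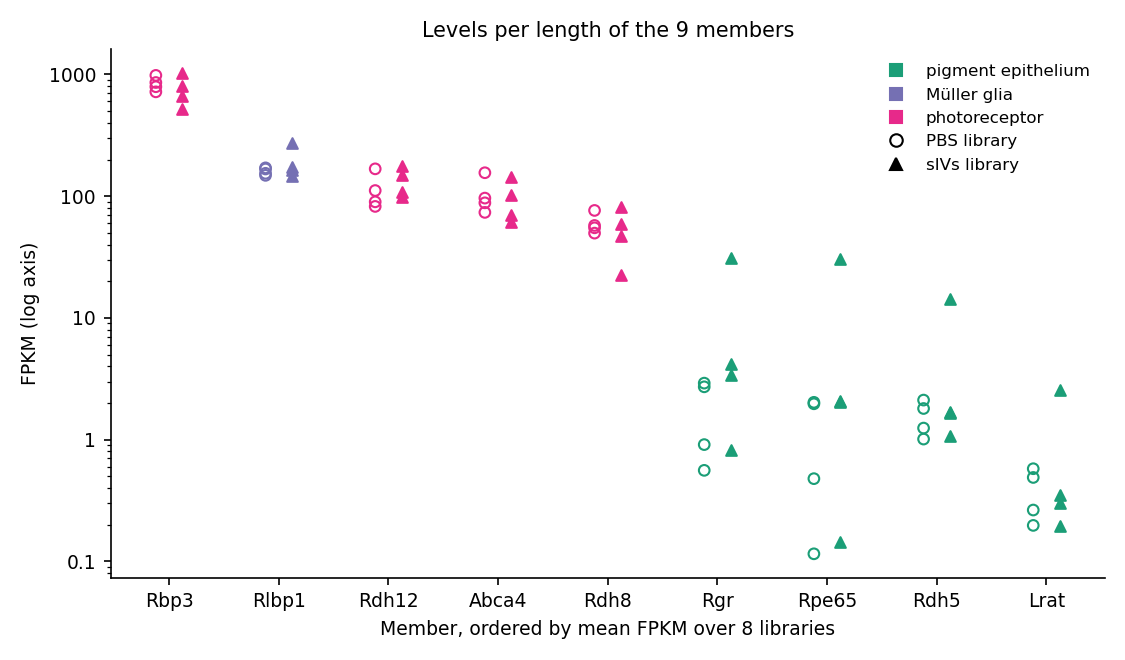
FPKM (log axis) of the 9 members in each library, ordered by mean over 8 libraries; open circles are PBS and filled triangles sIVs libraries, coloured by the cell that mainly makes the transcript. Rbp3 lies between 519 and 1022 FPKM, and 1 sIVs library lies far above the others in each pigment epithelium member.

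Summed over members, pigment epithelium transcripts made up between 0.142% and 0.778% of the FPKM of the 9 genes in 7 libraries and 6.90% in sIVs replicate 4. The photoreceptor sum was 780 FPKM in that library and 876 to 1397 FPKM in the others. The ratio of the photoreceptor to the pigment epithelium sum was thus 9.98 in sIVs replicate 4, and between 107 and 633 elsewhere. It was 633 and 433 in PBS replicates 1 and 4 and 486 in sIVs replicate 3, so both groups held libraries with very little pigment epithelium transcript. In bulk tissue, fewer cells of a type and less RNA per cell cannot be told apart.

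The pigment epithelium members were low in the same 3 libraries and high in the same 1, and both groups held low libraries. Rpe65 stood at 0.227, 3.88, 0.941 and 3.97 CPM in PBS replicates 1, 3, 4 and 5, and at 4.01, 0.284, 60.2 and 4.13 CPM in sIVs replicates 1, 3, 4 and 5. In each group 1 library was close to zero, and apart from sIVs replicate 4 the groups covered the same range. The lowest values rested on 3 counts in PBS replicate 1 (95% exact Poisson interval 0.619 to 8.77, counting error only) and 4 counts in sIVs replicate 3 (1.09 to 10.2), against 919 counts in sIVs replicate 4.

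Rgr stood at 2.72, 14.2, 4.43 and 13.2 CPM in PBS replicates 1, 3, 4 and 5 and at 16.7, 3.98, 153 and 20.4 CPM in the sIVs replicates of the same numbers. The same 3 libraries were lowest as for Rpe65, and the same one was highest. Rdh5 stood at 3.55, 5.15, 2.89 and 6.02 CPM in PBS replicates 1, 3, 4 and 5 and at 4.87, 3.05, 41.4 and 4.74 CPM in sIVs replicates 1, 3, 4 and 5. Lrat stood at 1.44, 2.66, 1.08 and 3.13 CPM and at 1.65, 1.07, 14.1 and 1.93 CPM in the same order. For both genes the groups overlapped, and sIVs replicate 4 alone was out of range.

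The size of the swing differed between these 4 genes. Leaving out sIVs replicate 4, the highest library was 18.2 times the lowest for Rpe65 and 7.48 times for Rgr, but 2.94 times for Lrat and 2.08 times for Rdh5. sIVs replicate 4 was 15.5 times the median of the other 7 libraries for Rpe65, 11.6 times for Rgr, 8.72 times for Rdh5 and 8.54 times for Lrat. The ratio of Rgr to Rpe65 in FPKM was 1.03 in that library, 1.34 to 1.99 in 5 others, and 4.85 and 5.66 in PBS replicate 1 and sIVs replicate 3, where Rpe65 was near its floor. Rdh5 to Rpe65 ran from 0.473 in sIVs replicate 4 to 10.8 in PBS replicate 1. The 4 transcripts were thus not in a fixed proportion: in PBS replicate 1, with 3 counts of Rpe65, there were 47 of Rdh5 and 19 of Lrat.

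Neighbouring genes bear on 2 of these levels. Rdh5 (ENSMUSG00000025350, chromosome 10, 128913593 to 128922888, mm10, minus strand) overlaps Bloc1s1 on the same strand over 5007 bases. Bloc1s1 held at most 25.6% of the count of Rdh5 in any library. It held 12 counts beside 47 of Rdh5 in PBS replicate 1 and 11 beside 43 in sIVs replicate 3. In PBS replicate 4 it held 5 beside 43, and in sIVs replicate 4 only 16 beside 632. Lrat (ENSMUSG00000028003, chromosome 3, 82892579 to 82903973, minus strand) lies within the antisense gene Rbm46os, which held at most 4 counts in a library. Rpe65 (ENSMUSG00000028174, chromosome 3, 159599175 to 159625321, plus strand) and Rgr (ENSMUSG00000021804, chromosome 14, 37034909 to 37048964, minus strand) overlap no other annotated gene. The library protocol marks strand, but its use in counting is not stated in the labels.

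**Figure D2:**
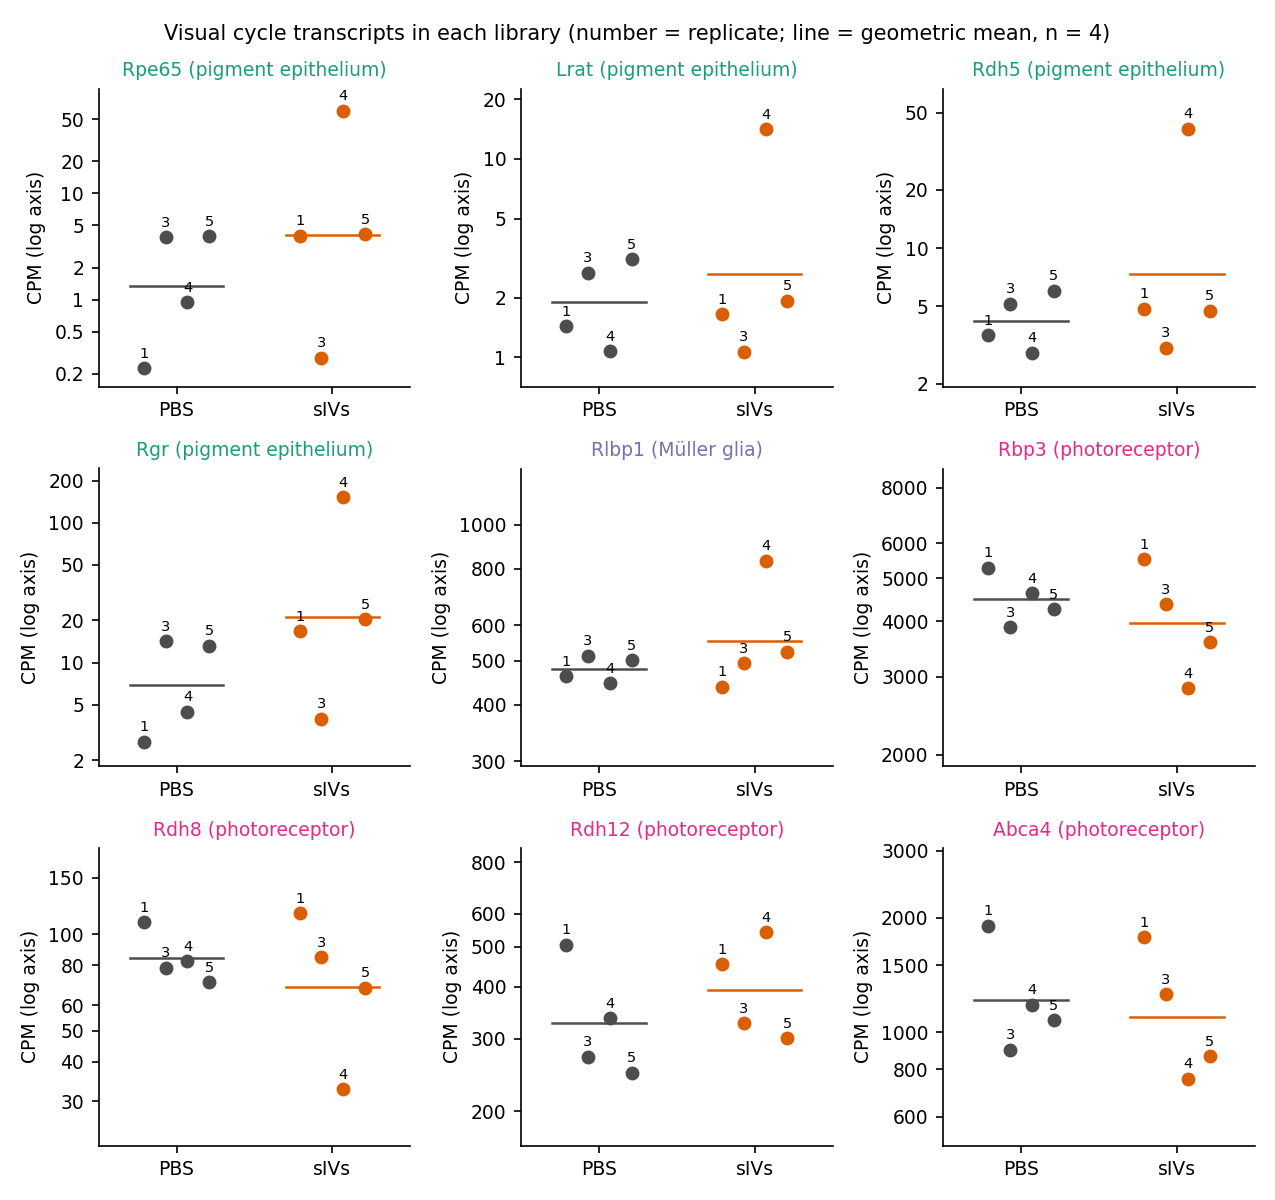
CPM (log axis, a separate scale per gene) of each member in the 4 PBS and 4 sIVs libraries; the number at a point is the replicate and the line the geometric mean. Rpe65 runs from 0.227 to 60.2 CPM and Rlbp1 only from 439 to 832 CPM.

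None of the pigment epithelium members passed the test between groups. Rpe65 had a log2 fold change (sIVs over PBS) of 2.90 ± 1.32 (SE; edgeR quasi-likelihood test, adjusted p = 0.81), and 0.29 ± 0.90 without sIVs replicate 4 (adjusted p = 1.00). Rgr, the only member with an unadjusted p under 0.05 (0.0366), had 2.48 ± 1.02 (SE; adjusted p = 0.81) and 0.65 ± 0.64 without that library. The values for Rdh5 were 1.61 ± 0.80 and -0.07 ± 0.30, and for Lrat 1.17 ± 0.80 and -0.44 ± 0.42 (SE; with and without that library), so both changed sign. The approximate 95% interval without that library ran from -1.75 to 2.33 for Rpe65 and from -0.74 to 0.61 for Rdh5. Without that library, a change of 2-fold in Rpe65 therefore lay within the interval, whereas for Rdh5 it did not. With all 8 libraries the intervals ran from -0.08 to 5.88 for Rpe65 and from -0.18 to 3.41 for Rdh5. A 2-fold rise lay within both of these.

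Other transcripts of pigment epithelium followed these members in part. Of 16 marker genes listed for this cell type, 10 passed the filter on low counts. Of those, 6 (60%) were highest in sIVs replicate 4, against 35.7% of all genes. The summed level of the 16 was 110 to 179 CPM in PBS and 130 to 439 CPM in sIVs retinas, or 130 to 196 CPM without sIVs replicate 4. Krt18 was the largest single part of the sum outside that library. It stood at 63.0 to 99.6 CPM in PBS and 88.7 to 147 CPM in sIVs retinas, or 88.7 to 97.1 CPM without sIVs replicate 4. Its highest PBS value was in replicate 4, where the 4 members were low. Best1, a chloride channel gene that defines the cell type, was at or near zero throughout, at most 0.181 CPM, and Mlana, a melanosome gene, reached at most 0.894 CPM. Tyrp1, a melanin enzyme gene, stood at 1.36, 2.49, 1.28 and 5.84 CPM in PBS replicates 1, 3, 4 and 5 and at 2.36, 0.710, 5.57 and 6.46 CPM in sIVs replicates 1, 3, 4 and 5. It was highest in sIVs replicate 5 and almost as high in PBS replicate 5, unlike Rpe65. The same libraries were highest for the sum of 7 markers of choroid and stroma, at 69.6 and 64.6 CPM there and 20.4 to 34.9 CPM elsewhere. Single markers differed. Of the 5 tested, 1 was highest in sIVs replicate 4 (Plvap, 19.3 CPM against 7.81 to 11.7 CPM elsewhere) and 1 was lowest there (Col3a1). Each is 20% of the 5, against 35.7% highest and 35.4% lowest of all genes. The sum of 5 red blood cell markers was also highest in sIVs replicate 4. It was 5.24 to 9.14 CPM in PBS and 9.37 to 26.7 CPM in sIVs retinas, or 9.37 to 15.4 CPM without that library. The groups thus did not overlap in the sum, by a narrow gap. They did not overlap for 0 of the 4 tested markers, against 2.01% of all genes. Hba-a2, which the filter on low counts left untested, stood at 0.151 to 0.405 CPM in PBS and 0.426 to 0.982 CPM in sIVs retinas. Its groups thus did not overlap, on at most 15 counts in a library. Of the 4 tested, 2 had an unadjusted p under 0.05 by edgeR, against 1.5% of all genes, and none passed after adjustment. The log2 fold change was above 0 for 3 of the 4, whereas Alas2 had -0.73 ± 0.42 (SE), and -0.58 without that library. The part of blood or pigment epithelium content in the member values was not tested.

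The genes whose profiles over the 8 libraries lay closest to the mean of the 4 pigment epithelium members were Slc6a20a, Trf, Slc16a8, Col8a2 and Cpxm2. Their root mean square differences in centred log2 CPM were 0.34, 0.35, 0.41, 0.49 and 0.59, against a median of 1.49 over 13779 candidate genes. Slc16a8, the lactate transporter of pigment epithelium, stood at 35.0 CPM in sIVs replicate 4 and 1.70 to 4.44 CPM elsewhere. Trf, which encodes transferrin, stood at 34.6 CPM there and 0.832 to 5.79 CPM elsewhere. Both were chosen for this likeness, so their course is a description of the pattern.

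Rlbp1, the most even of the 9 transcripts, stood at 463, 514, 446 and 501 CPM in PBS replicates 1, 3, 4 and 5 and at 439, 494, 832 and 524 CPM in sIVs replicates 1, 3, 4 and 5. Without sIVs replicate 4 its highest library was 1.19 times its lowest. The log2 fold change was 0.25 ± 0.20 (SE; edgeR adjusted p = 0.81), and 0.01 ± 0.10 without that library, with an approximate 95% interval of -0.21 to 0.23. Rlbp1 (ENSMUSG00000039194, chromosome 7, 79374870 to 79387048, minus strand) overlaps no other annotated gene.

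Without sIVs replicate 4 the log2 level of Rlbp1 spanned 0.26 on its own and 0.82 relative to the mean of 12 Müller markers. The mean log2 deviation of these markers was lowest in PBS replicate 1, at -0.57, where Rlbp1 deviated by -0.16, and in sIVs replicate 4 the markers stood at 0.14 and Rlbp1 at 0.69. Of the 12 Müller markers, 4 (33.3%) were highest and 3 (25%) lowest in that library, against 35.7% and 35.4% of all genes. Glul, the glutamine synthetase gene of Müller glia, stood at 2201 CPM in that library and 1873 to 2324 CPM elsewhere. Aqp4, a water channel gene of the same cells, stood at 168 CPM there, within its range of 159 to 298 CPM elsewhere. Rlbp1 is also made by pigment epithelium, and what each cell contributed was not tested. The genes closest to the profile of Rlbp1 were Slc35c2, Herpud1, Fibp, BC029722 and Tspan4, with root mean square differences of 0.038 to 0.056 against a median of 0.35.

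The photoreceptor members had a different order of libraries, with replicate 1 high in both groups. Abca4 stood at 1904, 900.2, 1180 and 1075 CPM in PBS replicates 1, 3, 4 and 5 and at 1774, 1258, 756 and 864 CPM in sIVs replicates 1, 3, 4 and 5. Rbp3 stood at 5290, 3877, 4628 and 4257 CPM in PBS and at 5531, 4375, 2826 and 3584 CPM in sIVs libraries of the same numbers. For both genes the replicates numbered 1 were the top pair, sIVs replicate 4 was lowest, and the groups overlapped.

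Rdh8 stood at 109, 78.6, 82.2 and 70.8 CPM in PBS replicates 1, 3, 4 and 5 and at 116, 84.6, 32.7 and 68.1 CPM in sIVs replicates 1, 3, 4 and 5. It, too, was highest in the replicates numbered 1 and lowest in sIVs replicate 4. Rdh12 stood at 506, 271, 336 and 248 CPM in PBS and at 453, 326, 541 and 301 CPM in sIVs libraries in the same order. The replicates numbered 1 were again high, but here sIVs replicate 4 was the highest of all.

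Rdh12 parted from the other photoreceptor members in sIVs replicate 4. The ratio of Rdh12 to Abca4 in FPKM was 2.90 there and 0.934 to 1.41 in the other 7 libraries. The ratio of Rdh12 to Rdh8, a pair of reductases acting on the same substrate, was 7.83 there and 1.63 to 2.20 elsewhere. Of 15 rod markers, 4 (26.7%) were highest and 2 (13.3%) lowest in that library, against 35.7% and 35.4% of all genes. Their mean log2 deviation was 0.20 there, 0.38 in PBS replicate 1 and 0.45 in sIVs replicate 1, and below 0.03 in the other 5 libraries. Gnat1 stood at 11068 and 11493 CPM in the replicates numbered 1 and 5643 to 9129 CPM in the other 6. Of 10 cone markers, 6 (60%) were highest and 3 (30%) lowest in sIVs replicate 4, against 35.7% and 35.4% of all genes. The mean log2 deviation of the cone markers there was 0.32. Their summed level was 2075 CPM, against 1276 to 1551 CPM in the other 7. Arr3, the cone arrestin gene, was neither highest nor lowest, at 77.9 CPM there and 73.7 to 117 CPM elsewhere.

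Measured against the rod markers of the same library, the photoreceptor members spanned a smaller range in the 7 other libraries. Without sIVs replicate 4, the log2 level of Abca4 spanned 1.14 on its own and 0.57 relative to the mean of the rod markers. Rdh12 spanned 1.03 and 0.31, Rdh8 0.77 and 0.44, and Rbp3 0.63 and 0.41. In sIVs replicate 4 the relative level deviated by -1.41 (log2) from the average of the 8 libraries for Rdh8, by -0.81 for Abca4, by -0.77 for Rbp3 and by 0.39 for Rdh12. The part of rod content in the member values was not tested.

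**Figure D3:**
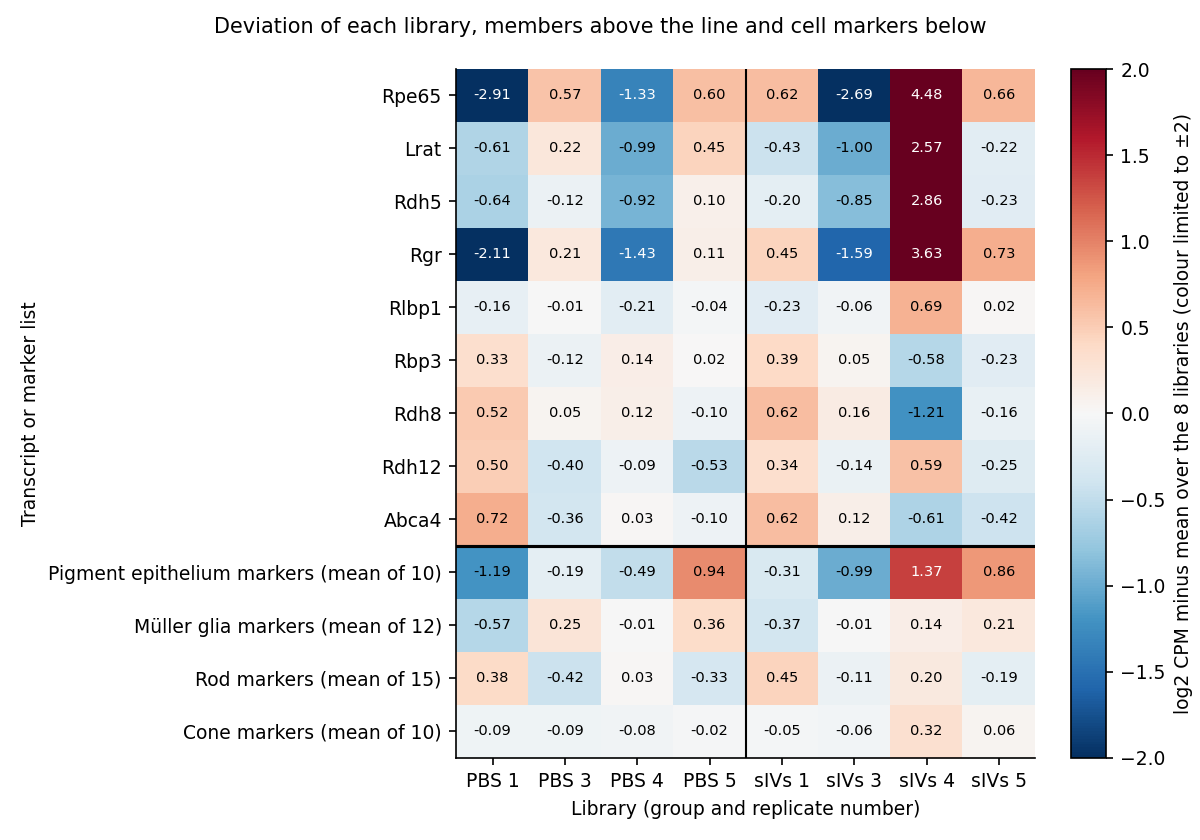
Log2 CPM of each library minus the mean over the 8 libraries, for the 9 members (above the line) and for the mean of marker genes of 4 cell types (below it); red is higher, blue lower, and the colour is limited to ±2. The pigment epithelium members are lowest in PBS replicates 1 and 4 and sIVs replicate 3, the photoreceptor members and rod markers are high in both replicates numbered 1, and Rdh12 parts from Rbp3, Rdh8 and Abca4 in sIVs replicate 4.

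Gene length was related to the values of sIVs replicate 4. Over all genes tested, its median log2 deviation was 0.43 for the 1240 genes of up to 1000 bases and 0.59 for the 2212 genes above that and up to 2000 bases. It was 0.26 for the 5165 genes up to 4000 bases, -0.13 for the 5779 up to 8000 bases and -0.51 for the 2608 longer genes. In the other 7 libraries the same medians lay between -0.12 and 0.13. Abca4, with 12022 bases, deviated by -0.61, close to its length class. Rdh12 (2967 bases) and Rlbp1 (2954 bases) deviated by 0.59 and 0.69, in the upper part of their class, with 77.2% and 83.5% of its genes below them. Rdh8, with only 1405 bases, deviated by -1.21, with 8.91% of its class below. The 4 pigment epithelium members each stood above at least 99.9% of genes of their class. The part of length or RNA quality in the member values was not tested.

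**Figure D4:**
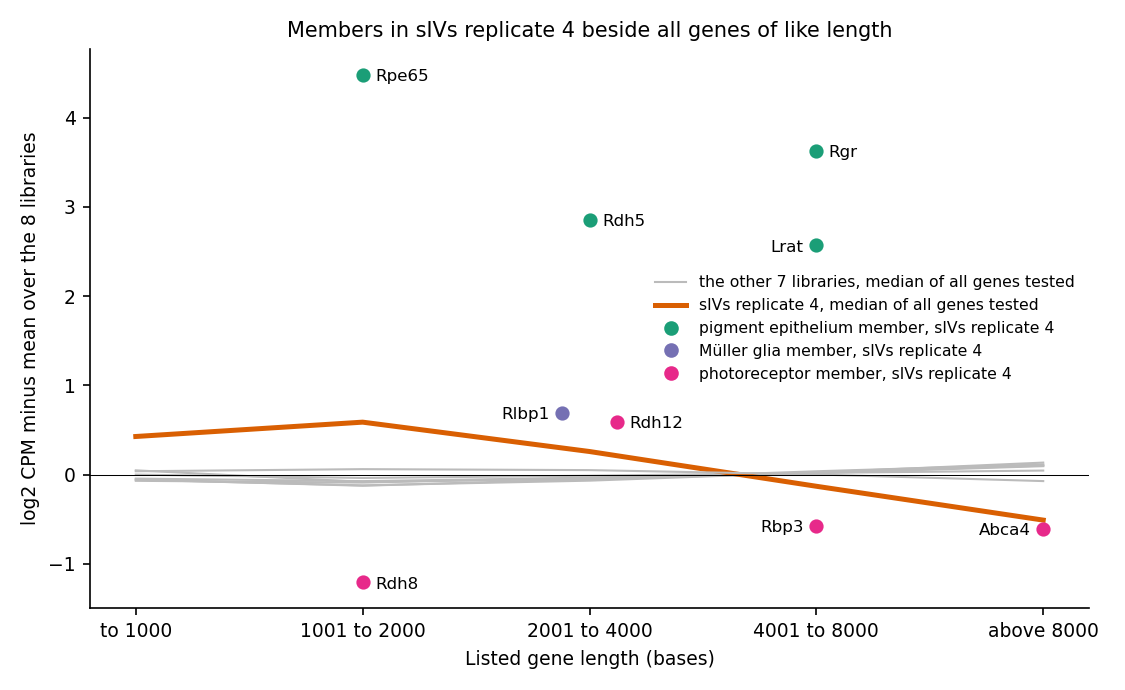
Log2 CPM minus the mean over the 8 libraries by listed gene length: lines are medians of all genes tested in each library (orange, sIVs replicate 4; grey, the other 7), and points are the members in sIVs replicate 4, coloured by cell. Rpe65, Rdh5, Rgr and Lrat lie at 2.57 or above, whereas Rdh8 lies at -1.21, below the line for genes of its length.

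No photoreceptor member passed between groups. Log2 fold changes were -0.15 ± 0.22 for Rbp3 (SE; edgeR adjusted p = 0.84), -0.18 ± 0.32 for Rdh8 (adjusted p = 0.87), 0.25 ± 0.26 for Rdh12 (adjusted p = 0.81) and -0.12 ± 0.31 for Abca4 (adjusted p = 0.91). Without sIVs replicate 4 they were -0.01 ± 0.19, 0.07 ± 0.19, 0.08 ± 0.25 and 0.04 ± 0.30 in the same order, so that Rdh8 and Abca4 changed sign. Abca4 also changed sign without PBS replicate 1, to 0.14. With all 8 libraries the approximate 95% interval was -0.64 to 0.35 for Rbp3 and -0.83 to 0.58 for Abca4, so a 2-fold difference between the groups lay outside the interval for each of these genes.

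The genes closest to the mean profile of the photoreceptor members were Plekha8, Klhl18, Cep120, Fhod3 and Kdm4c, with root mean square differences of 0.044 to 0.065 in centred log2 CPM against a median of 0.41. In sIVs replicate 4 this mean deviated by -0.45, whereas Rdh12 deviated by 0.59, Rbp3 by -0.58, Abca4 by -0.61 and Rdh8 by -1.21. Likeness to the mean is therefore not likeness to each member. Klhl18 stood at 474 and 516 CPM in the replicates numbered 1 and at 257 CPM in sIVs replicate 4. Rbp3 (ENSMUSG00000041534, chromosome 14, 33954003 to 33964216), Rdh8 (ENSMUSG00000053773, chromosome 9, 20818503 to 20826117) and Rdh12 (ENSMUSG00000021123, chromosome 12, 79208914 to 79222665) overlap no other annotated gene. Abca4 (ENSMUSG00000028125, chromosome 3, 122044443 to 122180123) overlaps 2 pseudogenes on the other strand, with counts of at most 0.0626% of its own.

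Across the 9 members, 0 passed the test at an adjusted p of 0.05, as did 0 of 17004 genes tested (0%) by edgeR, by DESeq2 and by limma-voom. At an unadjusted p under 0.05 there was 1 member by edgeR, against 255 genes (1.5%). DESeq2, which gave no p-value for Rdh5, had 2 members and 322 genes, and limma-voom with sample quality weights 0 members and 455 genes. Log2 fold changes were above 0 for 6 of 9 members, against 51.3% of all genes, and for 6 of 9 without sIVs replicate 4. At least 2-fold differences, an absolute log2 fold change of 1 or more, were found for 4 of 9, all of them pigment epithelium genes, against 0.717% of all genes. Without sIVs replicate 4 this count was 0 of 9, against 0.389%. The groups did not overlap for 0 of 9, against 2.01%. The median log2 fold change was 2.05 for pigment epithelium and -0.13 for photoreceptor members with all libraries, and 0.11 and 0.06 without sIVs replicate 4, beside 0.0093 and 0.00088 over all genes. In sIVs replicate 4, 6 of the 9 members were highest and 3 lowest of the 8 libraries, against 35.7% and 35.4% of all genes.

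**Figure D5:**
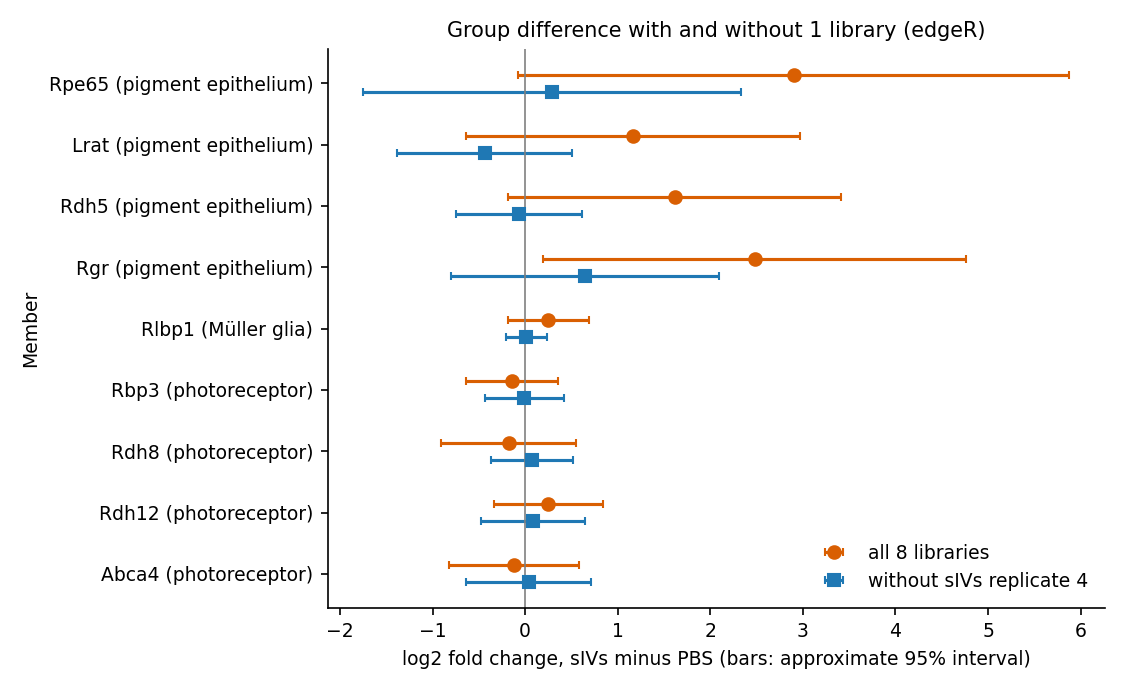
Log2 fold change of each member, sIVs minus PBS, with all 8 libraries (orange circles) and without sIVs replicate 4 (blue squares); bars are approximate 95% intervals from edgeR. Rpe65 moves from 2.90 to 0.29 and Rgr from 2.48 to 0.65, while Rbp3 stays between -0.15 and -0.01.

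The other genes of retinoid handling gave no group difference past the test. Of 48 such genes, 41 were tested, and 0 passed in either direction. The log2 fold change was above 0 for 29 and below 0 for 12, with a median of 0.11 against 0.0093 over all genes, and 0.02 without sIVs replicate 4. In that library 20 of the 41 were highest (48.8%, against 35.7% of all genes) and 3 lowest (7.32%, against 35.4%). Among carriers, Ttr, which encodes the transthyretin that carries the retinol-binding protein and is also a pigment epithelium marker, stood at 0.756, 12.3, 3.16 and 14.1 CPM in PBS replicates 1, 3, 4 and 5 and at 7.52, 0.923, 150 and 14.8 CPM in sIVs replicates 1, 3, 4 and 5. It was lowest and highest in the same libraries as Rpe65, and its level in CPM was 1.88 to 3.58 times that of Rpe65 in all 8. Its log2 fold change was 2.50 ± 1.31 (SE; edgeR adjusted p = 0.81), and 0.018 without sIVs replicate 4. Crabp1, a cellular retinoic acid-binding protein gene, had 0.60 ± 0.27 (SE), and 0.29 without that library.

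Among oxidoreductases, Dhrs3, which reduces all-trans retinal, had a log2 fold change of 0.21 ± 0.15 and Rdh13, a mitochondrial retinol dehydrogenase gene, -0.12 ± 0.13 (SE). Without sIVs replicate 4 these were 0.07 and -0.03. Dgat1 and Awat2, acyltransferase genes that can esterify retinol, had 0.21 ± 0.13 and 0.46 ± 0.35, and 0.13 and 0.52 without that library. Scarb1, a scavenger receptor gene that takes up carotenoids, had 0.05 ± 0.14, and Bco2, a carotenoid-cleaving enzyme gene, -0.14 ± 0.51. Without it they had 0.04 and 0.10, so the sign of Bco2 turned. The lowest unadjusted p among all 41 genes was 0.051, for Crabp1.

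Genes of retinoic acid synthesis and breakdown had the lowest median, -0.36 over 5 tested genes, and -0.41 without sIVs replicate 4. Cyp26c1 and Cyp26a1, which break down retinoic acid, had log2 fold changes of -0.55 ± 0.51 and -0.36 ± 0.37 (SE), and -0.48 and -0.47 without sIVs replicate 4. Of the nuclear receptors, Rxrg and Rxrb had 0.45 ± 0.24 and 0.16 ± 0.13, and 0.21 and 0.04 without that library. Of the opsins, Opn1mw, the middle-wavelength cone pigment, had 0.26 ± 0.21, and 0.02 without it. Rrh, the peropsin gene of pigment epithelium, had 0.18 ± 0.17, and -0.0034 without sIVs replicate 4. It stood at 36.5 CPM in that library and 21.2 to 25.8 CPM elsewhere, a smaller excess than that of Rpe65.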

How the data were processed

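The authors deposited raw counts per gene for 54532 Ensembl genes and FPKM values of the same genes and libraries. Coordinates are of mm10, the build that the submitters' processing notes name. The sources used here do not give the aligner, the counter or its use of strand. Gene positions matched GENCODE M21 for all 9 members. Titles of the samples gave each group and replicate number.

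Genes were kept by filterByExpr (17004 genes), scaled with TMM factors and tested with edgeR 4.0.16 (R 4.3.3) by the two-sided quasi-likelihood F test, fitted on all 8 libraries with no term beside group, and p-values were adjusted by Benjamini-Hochberg over all genes tested. Standard errors are the absolute log2 fold change over the square root of F, so intervals are approximate. CPM use effective library sizes; log2 CPM had a prior count of 2. Alternatives used DESeq2 1.42.0, limma 3.58.1 (voom with quality weights, and log2 of FPKM plus 1 or 0.1), other scaling, no filter, a block on replicate number and the omission of each library in turn.

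The closest pair of libraries within a group had a chi-square per degree of freedom of 6.22, more than sampling noise gives, and all 8 were used. Members and gene lists were chosen with earlier results of these data known. Named genes were all members, the 2 genes of smallest p per retinoid role, listed marker genes (1 of which is not reported here) and the 5 protein-coding genes of at least 1 CPM closest to each profile.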

Additional observations from a re-analysis of the deposited data

Results flagged for a closer look

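Of 31 genes examined per group, 7 had 1 library set far from the other 3, in each case sIVs replicate 4 as the highest of its group. The gap to the next library took 0.831 to 0.953 of the range of the group, above the 95% critical value of Dixon's test. Chance passes that value in about 1 of 20 groups of normally distributed values. The 7 flags all came from 1 library and were not independent, so this rate cannot be applied to them together. The values were 60.2 CPM for Rpe65, 14.1 CPM for Lrat, 41.4 CPM for Rdh5, 153 CPM for Rgr, 12.7 CPM for Crabp1, 150 CPM for Ttr and 36.5 CPM for Rrh. No PBS library was set apart in this way among the 31, and other genes were not examined. PBS replicate 5 was far above the other PBS libraries in some of those. Slc6a13, listed for pigment epithelium, stood at 26.4 CPM there and 0.680 to 3.23 CPM in the other PBS libraries. Aldh1a3, a retinoic acid synthesis gene, stood at 4.94 CPM and 0.302 to 0.694 CPM. Of the 7 flagged genes, Crabp1 is the only one that is not a member or listed for pigment epithelium. Its next highest library stood at 6.88 CPM.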

How the results depend on the processing

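No member passed under any alternative run, and 0 genes passed in each. DESeq2 gave neither a p-value nor an adjusted p for Rdh5, only a log2 fold change of 1.61 ± 0.73 (SE). Genes at an unadjusted p under 0.05 numbered 136 (without PBS replicate 3) to 958 (without sIVs replicate 3). Of 144 member values under alternatives, 133 kept their sign and 11 reversed; the cause was not tested. In limma-voom with sample quality weights, where sIVs replicate 4 had a weight of 0.0913, the log2 fold changes reversed to -0.75 for Rpe65, -0.48 for Lrat, -0.11 for Rdh5, 0.0445 for Rbp3, 0.11 for Rdh8 and 0.21 for Abca4. Leaving out each library in turn gave ranges of 0.29 to 3.31 for Rpe65, 0.65 to 2.86 for Rgr, -0.07 to 1.94 for Rdh5, -0.44 to 1.49 for Lrat, 0.01 to 0.36 for Rlbp1, -0.33 to -0.01 for Rbp3, -0.46 to 0.07 for Rdh8, 0.08 to 0.50 for Rdh12 and -0.40 to 0.14 for Abca4. The reversed values among these were -0.44 for Lrat, -0.0669 for Rdh5, 0.0727 for Rdh8 and 0.0373 for Abca4 without sIVs replicate 4, and 0.14 for Abca4 without PBS replicate 1. On the log2(FPKM + 1) scale, which understates low genes, Rpe65 had 1.12 and Lrat 0.27. With 0.1 added in place of 1 they had 1.49 and 0.43, still below the edgeR values of 2.90 and 1.17. The cause of this gap was not tested.

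Same-numbered libraries of the 2 groups deviated together with correlations of 0.60, 0.02, 0.23 and 0.51 for numbers 1, 3, 4 and 5. PBS replicates 1, 4 and 5 each correlated best with the sIVs library of the same number, and PBS replicate 3 with sIVs replicate 5. No label says that the numbers pair the libraries, so the main test did not pair them. With the replicate block, 0 genes passed (588 unadjusted, 255 without it), and Rpe65 had 1.53 and Rgr 1.58. Rpe65 rested on 3 and 4 counts in its lowest libraries, which limits its ratios there.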
